A study of Mus musculus with 8 samples.

Results

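The genes described here are 10 well-known transcriptional targets of the tumour suppressor p53 that act in apoptosis, growth arrest and stress responses: Bax, Bbc3, Pmaip1, Mdm2, Ccng1, Trp53inp1, Perp, Fas, Gadd45a and Sesn2. They were taken as the array probes whose gene name is one of these symbols or the older name Tnfrsf6 for Fas, which gave 15 probes for the 10 genes among 27814 names on the array. Of the 15 probes, 14 passed the filter on dim signal described below, so that all 10 genes were among the 18498 genes tested. Expression was measured on 8 single-colour Agilent mouse arrays, with 4 arrays of Sox9 mutant and 4 arrays of wild-type dorsal pancreatic epithelium at stage e12.5. The mutants were Sox9fl/fl;Pdx1-Cre embryos, in which Cre recombinase under the Pdx1 promoter deletes the floxed Sox9 gene in pancreatic cells, and the wild-type samples were Sox9fl/fl littermates without Cre. Both groups therefore carried the floxed allele, the mice were on a mixed FVB/N and C57Bl/6J background, and a control with Cre alone was not analysed here. Each RNA sample was pooled from the dorsal pancreata of 3 embryos. The design text speaks of 3 biological replicates while the labels number 4 samples per genotype, so n = 4 rests on the labels, and p-values measure the spread between these pools.

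p53 is a transcription factor that is kept at a low level by the ubiquitin ligase Mdm2 and accumulates after DNA damage and other stress. It then activates genes that halt the cell cycle, assist repair, or start apoptosis through mitochondria or through death receptors at the cell surface. Several of these genes also answer to other factors, and some have roles in unstressed tissue. Sox9 is a transcription factor of pancreatic progenitor cells, and its loss in the pancreas is known to deplete these progenitors.

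Values are log2 processed signals from which the 75th percentile of the same array was subtracted, so that 0 is the level of a probe at that percentile. Levels are compared only within a probe, since probes differ in their response. Across arrays the 75th percentile lay between 413 and 624 in the Sox9 mutants and between 372 and 640 in wild-type, and 59.4% to 75.3% of spots in the mutants and 62.4% to 77.7% in wild-type were well above background. A probe entered the test if 4 or more of the 8 arrays had it well above background, and a gene was represented by its brightest such probe. Differences are mutant minus wild-type, tested with limma and Benjamini-Hochberg adjustment over all 18498 genes, with a threshold of 0.05. Sox9 itself averaged -0.41 in the mutants and 2.29 in wild-type, a difference of -2.70 (SE 0.517, adjusted p = 0.0253, limma). When 1 array was left out, its call held for 4 of the 8 arrays, with differences between -3.09 and -2.24. Of 16 epithelial marker genes, 14 fell in the mutants, with a list median of -2.22. In such bulk samples, fewer cells of a type and less RNA per cell cannot be told apart.

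The results turn on a few probes, whose positions are given in the mm8 mouse build named by the array design. The probes of the 3 genes that passed the test and the probes of Bax and Mdm2 that varied most between arrays are shown, the latter pair over all 60 bases.
Perp probe, chr10:18546307-18546366, plus strand, first 30 bases: gaaaatttgggaatgcgtgtctctgaatac
Fas probe, chr19:34393409-34393468, plus strand, first 30 bases: caactcctggtgtgttctctttgccagcaa
Gadd45a probe, chr6:66964960-66965019, minus strand, first 30 bases: aagggacaaaaactacaaagcactgcaaga
Bax probe, chr7:45334141-45334296, minus strand: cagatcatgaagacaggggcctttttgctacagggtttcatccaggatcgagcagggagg
Mdm2 upstream probe, chr10:117095662-117095721, minus strand: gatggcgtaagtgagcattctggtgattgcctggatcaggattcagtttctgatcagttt
Mdm2 downstream probe, chr10:117092215-117092274, minus strand, first 30 bases: cattcagaaagactgaatcagaacatggat
The 60 bases of the Bax probe spread over 156 bases of the genome, so the probe crosses an exon junction. The upstream Mdm2 probe starts 3447 bases before the downstream one in the direction of transcription.

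Perp and Gadd45a fell in the Sox9 mutants and Fas rose, and the other 7 genes did not pass the test. The 3 of 10 genes compare with 5.37% of all genes tested, of which 1.56% were higher and 3.82% lower in the mutants. The median difference was -0.18 over the 10 genes and 0.02 over all genes tested. Without Sox9 mutant replicate 3 and wild-type replicate 1, on which the Bax probe was lowest, 0 of the 10 and 64 of all genes passed in limma's fit, and Perp, Gadd45a and Fas differed by -0.77, -0.69 and 0.59. The mutant and wild-type arrays did not overlap for 5 of the 10 genes, namely Perp, Gadd45a, Fas, Sesn2 and Pmaip1, against 15.2% of all genes. The mediators of mitochondrial apoptosis Bax and Bbc3 and the p53 inhibitor Mdm2 overlapped between genotypes.

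**Figure D1:**
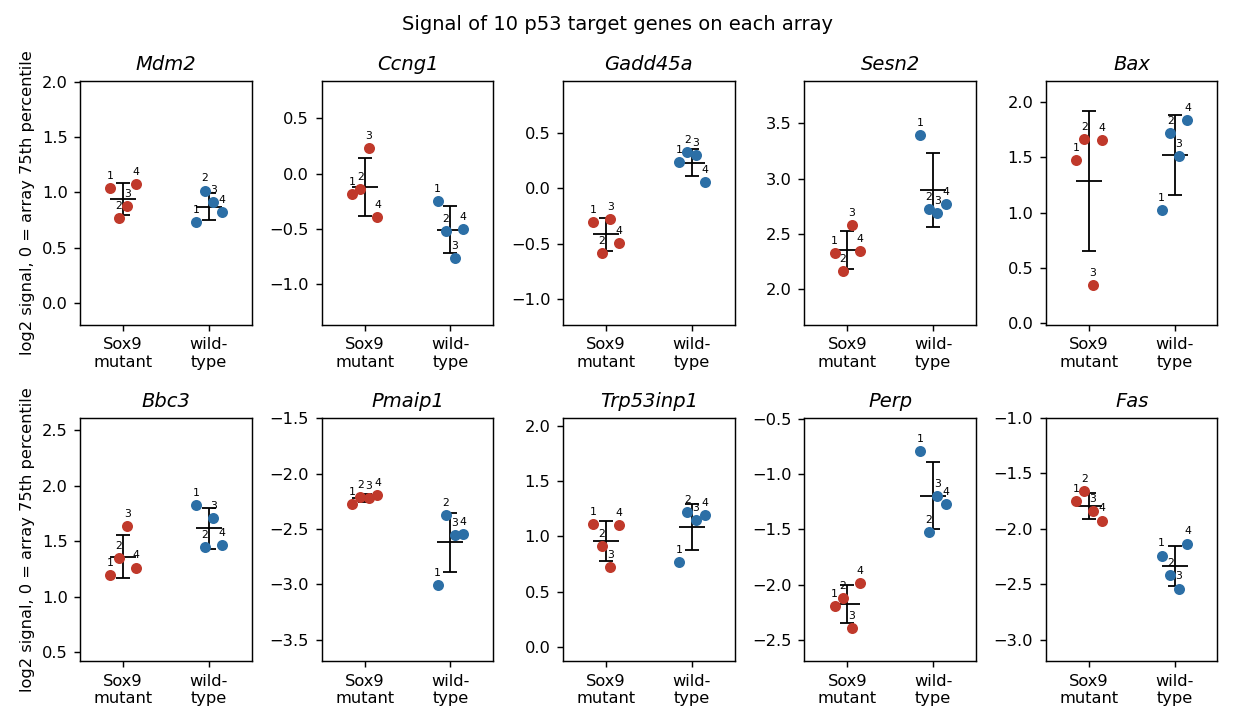
Log2 signal of the 10 genes on each array (0 is the 75th percentile of the array), with Sox9 mutant arrays in red and wild-type arrays in blue, numbered by replicate, and bars for the mean and SD (n = 4 each). Every panel spans the same range. Perp and Gadd45a lie lower in all 4 mutants and Fas lies higher, while Bax has 1 mutant array far below the others.

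Perp encodes a tetraspan membrane protein of the Pmp22 family that p53 induces during apoptosis and that is also a part of desmosomes, the junctions that hold epithelial cells together. Its log2 signal was -2.19, -2.12, -2.39 and -1.99 in Sox9 mutant replicates 1 to 4, against -0.79, -1.53, -1.20 and -1.27 in wild-type replicates 1 to 4. All 4 mutants lay below all 4 wild-type arrays. The difference was -0.98 (SE 0.172, adjusted p = 0.0185, limma), or 1.97-fold lower, and it was -0.87, -0.89 and -1.09 within the 3 slides that the arrays shared. The adjusted p rose above the threshold when 1 of 4 arrays was left out, to 0.0510 without wild-type replicate 3, 0.0556 without wild-type replicate 4, 0.0614 without Sox9 mutant replicate 1 and 0.0529 without Sox9 mutant replicate 2.

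Most epithelial markers and a part of the desmosome genes also fell. The mean level of the 16 epithelial markers was between -1.24 and 0.19 in the mutants and between 1.18 and 1.53 in wild-type, and 14 of the 16 were well above background on every mutant array. The adhesion molecules Cdh1 (-2.51, adjusted p = 0.0139) and Epcam (-2.12, adjusted p = 0.0137) were among those that fell, as limma tested them. So were Cldn3 (-2.75), Esrp1 (-2.50) and Elf3 (-2.48). Esrp1 and Elf3 were well above background on only 3 and 2 mutant arrays, so the sizes of their differences are not fixed. In alternative fits they came as small as -1.23 for Esrp1 and -1.05 for Elf3. The Esrp1 call held for 2 of the 8 arrays left out. The share of the Perp difference that goes with these markers was not tested. Of 10 desmosome and Pmp22 family genes tested, 4 fell and 3 rose, with a median of -0.22. The plakophilins Pkp3 (-2.24, adjusted p = 0.00957) and Pkp2 (-1.03, adjusted p = 0.0216), the desmosomal cadherin Dsg2 (-1.07, adjusted p = 0.0440) and desmoplakin, Dsp (-0.98, adjusted p = 0.0346), fell by limma. The 3 that rose were the Pmp22 family genes Emp1 (0.77, adjusted p = 0.0418), Pmp22 (0.75, adjusted p = 0.0310) and Emp3 (0.73, adjusted p = 0.0328). The desmosome genes Dsc2 (-0.33, adjusted p = 0.337) and Jup (-0.12, adjusted p = 0.727) and the Pmp22 relative Emp2 (0.23, adjusted p = 0.317) did not pass by limma. With 1 array left out, 1 to 4 of these 10 genes fell and 0 to 3 rose, and the calls of Dsg2 and Dsp held for 1 and 2 of the 8 arrays left out. The 3 that rose were called without Sox9 mutant replicate 4, and 0 rose without any other single array.

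Gadd45a encodes a small stress-induced protein of growth arrest and DNA repair. Its log2 signal was -0.30, -0.59, -0.27 and -0.50 in Sox9 mutant replicates 1 to 4, against 0.24, 0.33, 0.30 and 0.06 in wild-type replicates 1 to 4. The groups were apart on all 8 arrays. The difference was -0.65 (SE 0.119, adjusted p = 0.0220, limma), or 1.57-fold lower, and within the slides it was -0.60, -0.70 and -0.74. Leaving out 1 array ended the call for 5 of the 8 arrays, with adjusted p = 0.0541, 0.0612 and 0.0643 without wild-type replicates 1, 2 and 3, and 0.0573 and 0.0648 without Sox9 mutant replicates 1 and 2. The paralogs Gadd45b (0.42, adjusted p = 0.276) and Gadd45g, whose means were both 2.82, did not pass the limma test. None of the 14 paralogs and stress response genes did, with 2 at an unadjusted p under 0.05. Of all 18498 genes tested, 3484 had an unadjusted p under 0.05 in the limma fit and 5.37% passed. The largest differences in this list were those of Atf3, a stress-induced transcription factor (0.61, adjusted p = 0.206), and Gadd45gip1 (-0.44, adjusted p = 0.486).

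Fas encodes the death receptor that binds Fas ligand and recruits caspase-8. Its log2 signal was -1.75, -1.66, -1.84 and -1.93 in Sox9 mutant replicates 1 to 4, against -2.24, -2.42, -2.54 and -2.13 in wild-type replicates 1 to 4. Every mutant array was above every wild-type array. The difference was 0.54 (SE 0.125, adjusted p = 0.0474, limma), or 1.45-fold higher, and within the slides it was 0.58, 0.70 and 0.53. This call was the least stable of the 3. It was lost without any 1 of the 8 arrays (adjusted p between 0.0628 and 0.130), and the fit over all 27389 probes, of which 3.75% passed, gave an adjusted p of 0.0608. It was also lost with quantile normalization (0.101), with normexp background correction (0.0701) and in the authors' deposited table (0.0712). A second Fas probe, 18169 bases upstream, was above background on 1 mutant array and on 0 wild-type arrays, so it was not tested and no fold is given.

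Most macrophage, mesenchymal, endothelial and erythroid markers differed in the same direction as Fas, and most neural markers in the opposite one. Of 10 macrophage markers, 4 rose (Adgre1, Csf1r, Fcer1g and C1qc), and the list's mean level was between 0.88 and 1.43 in the mutants and between 0.37 and 0.63 in wild-type, with all 10 well above background on every array. Of 11 mesenchymal markers 3 rose (Pdgfra, Postn and Col1a2), and the list's mean level was between 3.53 and 3.94 in the mutants and between 2.96 and 3.31 in wild-type. Of 10 endothelial markers 2 rose (Emcn and Eng), and the list's mean level was between 1.23 and 1.50 in the mutants and between 0.75 and 1.04 in wild-type. None of 10 erythroid markers passed the limma test, with 4 at an unadjusted p under 0.05 and Klf1 at 0.96. The mean level of the erythroid list was between 0.96 and 1.23 in the mutants and between 0.36 and 0.97 in wild-type. Of 8 neural markers 2 fell, with Sox10 at -1.54. With 1 array left out, 0 to 4 macrophage, 0 to 3 mesenchymal, 0 to 1 endothelial and 0 to 2 erythroid markers rose. The highest of these counts came without Sox9 mutant replicate 4. Without any 1 of the other 7 arrays, at most 2 macrophage, 1 mesenchymal, 0 endothelial and 1 erythroid markers rose. Their part in the Fas difference was not tested. Among 13 other death receptor pathway genes, none passed the limma test and 2 had an unadjusted p under 0.05. For this list and the erythroid one, the comparison is 3484 of all 18498 genes with such a p, and 5.37% that passed. The largest differences in the death receptor list were those of the receptors Ngfr (0.63, adjusted p = 0.0867) and Tnfrsf1a (0.46, adjusted p = 0.117).

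Sesn2 and Pmaip1 separated the genotypes on every array without passing the test over all genes. Sesn2 encodes sestrin 2, a stress-induced regulator of growth signalling and oxidative stress. Its brighter probe read 2.33, 2.17, 2.58 and 2.35 in Sox9 mutant replicates 1 to 4, against 3.40, 2.72, 2.69 and 2.77 in wild-type replicates 1 to 4. Wild-type replicate 1 lay well above the other wild-type arrays, and the difference was -0.54 (SE 0.182, adjusted p = 0.140, limma). It was -0.37 without that array. A second probe, 884 bases upstream, overlapped between genotypes and differed by -0.19 (adjusted p = 0.817 in the limma fit over probes). Pmaip1 encodes Noxa, a BH3-only protein that binds anti-apoptotic relatives of Bcl-2. It read -2.27, -2.21, -2.22 and -2.19 in the mutants, against -3.00, -2.37, -2.56 and -2.55 in wild-type. The difference was 0.40 (SE 0.143, adjusted p = 0.170, limma). Without wild-type replicate 1, which read lowest, it was 0.27. For Perp, Gadd45a, Fas, Sesn2 and Pmaip1 alike, the two-sided exact permutation test gave 0.0286, the smallest p that 4 against 4 arrays allow.

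Bax and Bbc3 act at the mitochondrion. Bax, which forms pores in its outer membrane, read 1.48, 1.67, 0.34 and 1.66 in Sox9 mutant replicates 1 to 4, against 1.02, 1.72, 1.51 and 1.83 in wild-type replicates 1 to 4. The groups overlapped, with Sox9 mutant replicate 3 far below the rest, and the difference was -0.23 (SE 0.322, adjusted p = 0.826, limma). Its 95% interval reached from -0.97 to 0.51, so the arrays do not exclude a change of either sign. Without Sox9 mutant replicate 3 the difference was 0.08. Bbc3 encodes Puma, a BH3-only activator of Bax. It read 1.20, 1.35, 1.63 and 1.26 in the mutants, against 1.83, 1.45, 1.71 and 1.47 in wild-type. The groups overlapped, with a difference of -0.25 (SE 0.143, adjusted p = 0.412, limma) and a 95% interval from -0.58 to 0.07.

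The Bax array that stood apart did so on a second probe. The probe of Bax lies on the array as 10 spots, which show technical variation alone and whose SD within an array was between 0.027 and 0.042, while the SD between arrays was 0.634 in the mutants and 0.358 in wild-type. The upstream Mdm2 probe, also with 10 spots, read -1.66, -1.73, -2.94 and -1.57 in Sox9 mutant replicates 1 to 4, against -2.27, -1.61, -1.71 and -1.54 in wild-type replicates 1 to 4. Both probes were lowest in Sox9 mutant replicate 3 and in wild-type replicate 1. These were also the arrays with the lowest 75th percentile and the lowest share of spots above background in their genotype. The deviation from the group mean in Sox9 mutant replicate 3 was at percentile 3.31 of all kept probes for Bax and at percentile 3.06 for the upstream Mdm2 probe. The part of array quality in these values was not tested.

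**Figure D2:**
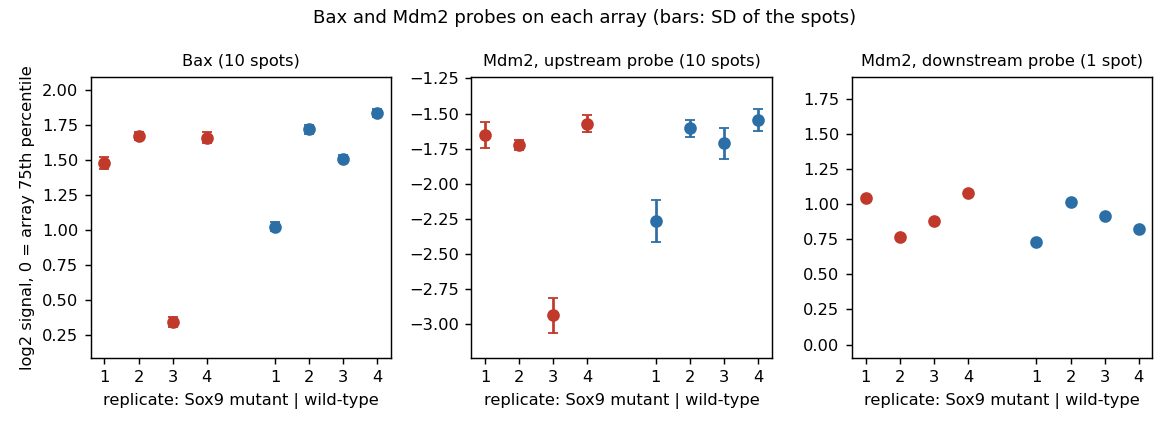
Log2 signal of the Bax probe and of both Mdm2 probes on each array (0 is the 75th percentile of the array), with Sox9 mutant replicates 1 to 4 in red at the left, wild-type replicates 1 to 4 in blue at the right, and bars for the SD of the 10 spots where a probe has them. Bax and the upstream Mdm2 probe are lowest in Sox9 mutant replicate 3 and in wild-type replicate 1. The downstream Mdm2 probe has 1 spot and is also lowest of the wild-type arrays in replicate 1, at 0.73. Of the mutant arrays it is lowest in replicate 2, at 0.77, and reads 0.88 in replicate 3.

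Mdm2, the p53 inhibitor and itself a p53 target, did not differ on its brighter downstream probe. That probe read 1.04, 0.77, 0.88 and 1.08 in the mutants, against 0.73, 1.02, 0.91 and 0.82 in wild-type. The groups overlapped and the difference was 0.07 (SE 0.117, adjusted p = 0.861, limma), with a 95% interval from -0.20 to 0.34. The upstream probe differed by -0.19 (adjusted p = 0.885 in the limma fit over probes), the opposite sign, and the mean of both probes by -0.06.

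Ccng1 and Trp53inp1 complete the list. Ccng1 encodes cyclin G1, which acts in the feedback between p53 and Mdm2. It read -0.19, -0.14, 0.24 and -0.39 in Sox9 mutant replicates 1 to 4, against -0.24, -0.52, -0.76 and -0.50 in wild-type replicates 1 to 4. The mutants were mostly higher, with an overlap between Sox9 mutant replicate 4 and wild-type replicate 1, and the difference was 0.39 (SE 0.167, adjusted p = 0.260, limma). Its second probe, 1986 bases upstream, differed by 0.19 (adjusted p = 0.563 in the limma fit over probes). Trp53inp1, a stress-induced nuclear protein that promotes p53 activity, read 1.11, 0.91, 0.73 and 1.10 in the mutants, against 0.77, 1.22, 1.15 and 1.19 in wild-type. The groups overlapped and the difference was -0.12 (SE 0.145, adjusted p = 0.792, limma). The overlap came from wild-type replicate 1 alone, and the difference was -0.22 without that array (adjusted p = 0.428, limma).

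A second probe of Trp53inp1 lies 2994 bases upstream. It read -0.34, -0.27, -0.34 and -0.22 in the mutants, against 0.29, -0.04, 0.12 and 0.09 in wild-type. The genotypes did not overlap on it, with a difference of -0.41 (adjusted p = 0.0861 in the limma fit over probes), the same sign as the first probe, and whether the probes differ was not tested. This probe begins with a unit of 26 bases that occurs again directly after itself, so that 52 of its 60 bases are a repeat. Whether it hybridises to other transcripts was not tested.
Trp53inp1 upstream probe, repeated unit, within chr4:11098180-11098239, plus strand: agtactaatacttaccacagcaggcg

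**Figure D3:**
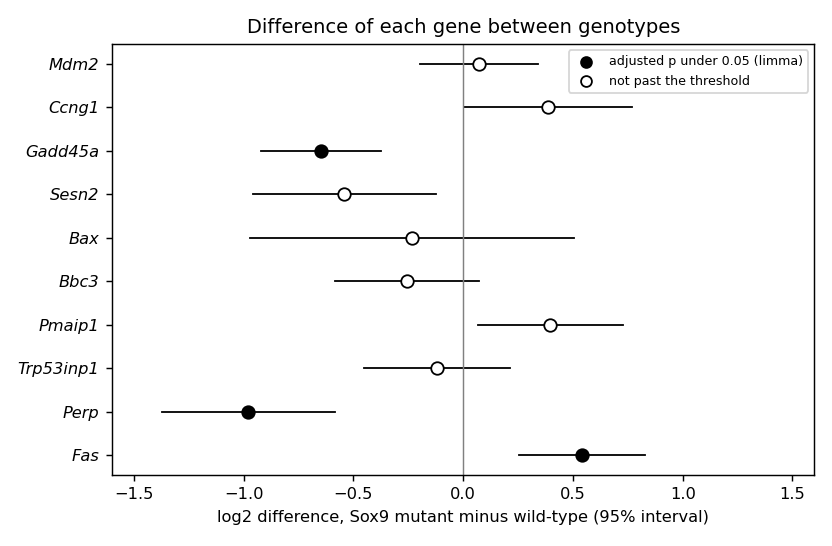
Difference in log2 signal, Sox9 mutant minus wild-type, for each of the 10 genes with its 95% interval (limma, n = 4 each). Filled points have an adjusted p under 0.05 and are Gadd45a, Perp and Fas.

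Beyond the 10 genes, the kinase inhibitor gene Cdkn1a fell in the mutants. Cdkn1a encodes p21, the inhibitor of cyclin-dependent kinases through which p53 halts the cell cycle. It read -2.21, -2.26, -2.47 and -1.76 in Sox9 mutant replicates 1 to 4, against 0.24, -0.54, -0.43 and -0.27 in wild-type replicates 1 to 4. Every mutant array was more than 1 log2 unit below every wild-type array. The difference was -1.92 (SE 0.213, adjusted p = 0.00812, limma), or 3.80-fold lower. It was the 1 gene that passed among 22 other p53 targets of arrest, repair and metabolism, a share of 4.55% beside the 5.37% of all genes, and the list's median was -0.06.

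Among 14 genes of p53 and its regulators (7.14% called), Trp63, a p53 relative of stratified epithelia, was past the threshold (adjusted p = 0.0141, limma). It was well above background on 4 wild-type arrays and on 1 mutant array, so it passed the filter through wild-type, and the size of its difference is not fixed: it was -2.89 as fitted and -0.96 with normexp background correction. Trp53 itself read 2.01, 1.08, 2.26 and 2.13 in the mutants, against 1.50, 1.74, 1.81 and 0.78 in wild-type. The groups overlapped and the difference was 0.41 (adjusted p = 0.600, limma). None of 14 other Bcl-2 family genes passed the limma test, with 2 at an unadjusted p under 0.05. The largest differences there were those of Bid, which links death receptors to mitochondria (-0.83, adjusted p = 0.0715), and Bnip3 (0.32, adjusted p = 0.172). None of 17 caspase, apoptosome and inhibitor of apoptosis genes passed, and 0 of them had an unadjusted p under 0.05. Beside both lists, 3484 of all 18498 genes had such a p in the limma fit and 5.37% passed. Apaf1, the core of the apoptosome, was at 0.31 (adjusted p = 0.282, limma) and the mitochondrial nuclease Endog at -0.26 (adjusted p = 0.279).

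**Figure D4:**
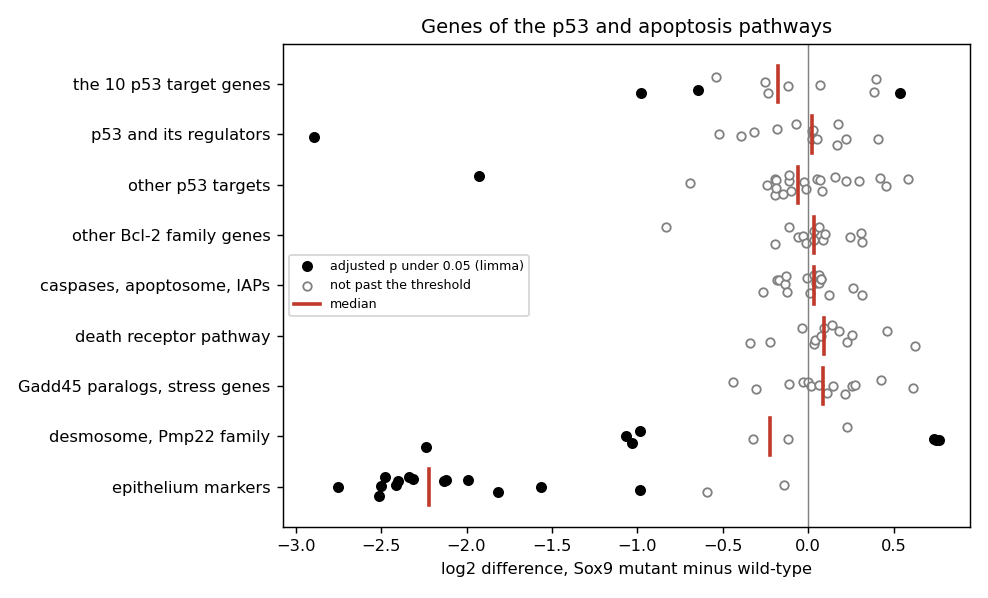
Difference in log2 signal, Sox9 mutant minus wild-type, for the genes tested in each list, with red bars at list medians and filled points for adjusted p under 0.05 (limma). The caspase, Bcl-2, death receptor and stress lists have no filled point, while 14 of 16 epithelial markers are filled and negative.

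The promoters were searched for the p53 response element, a pair of decamers of the p53 consensus. Up to 2 mismatches in all and a spacer of up to 13 bases were allowed. No mismatch was allowed at the fixed C and the fixed G of each decamer. The consensus reads the same on both strands. RefSeq windows from 250 bases before to 50 bases after the start site (GRCm38.p6) are given here for 7 of the 10 genes. Perp, Trp53inp1 and Pmaip1 are not among the 7. The 7 genes had 9 windows, of which 3 held an element, 1 each for Ccng1, Bax and Gadd45a, and 4.09% of all 32851 windows held one. Bbc3, Fas, Mdm2 and Sesn2 had none in these windows. The 3 windows and the upstream window of Cdkn1a are shown, with the decamers in capitals. The downstream window of Cdkn1a held no element.
Ccng1 promoter, chr11:40755237-40755536, minus strand: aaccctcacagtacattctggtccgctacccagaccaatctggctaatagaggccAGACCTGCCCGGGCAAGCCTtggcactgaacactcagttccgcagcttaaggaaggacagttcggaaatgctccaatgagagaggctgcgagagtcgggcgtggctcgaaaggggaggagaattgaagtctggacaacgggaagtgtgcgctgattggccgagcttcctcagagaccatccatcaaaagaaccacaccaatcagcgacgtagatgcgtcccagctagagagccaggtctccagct
Bax promoter, chr7:45466849-45467148, minus strand: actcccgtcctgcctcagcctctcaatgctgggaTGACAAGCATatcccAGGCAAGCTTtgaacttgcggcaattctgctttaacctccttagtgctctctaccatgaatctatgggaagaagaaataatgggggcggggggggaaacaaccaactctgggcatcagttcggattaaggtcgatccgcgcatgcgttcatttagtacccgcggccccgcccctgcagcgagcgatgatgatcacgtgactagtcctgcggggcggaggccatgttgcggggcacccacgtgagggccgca
Gadd45a promoter, chr6:67037358-67037657, minus strand: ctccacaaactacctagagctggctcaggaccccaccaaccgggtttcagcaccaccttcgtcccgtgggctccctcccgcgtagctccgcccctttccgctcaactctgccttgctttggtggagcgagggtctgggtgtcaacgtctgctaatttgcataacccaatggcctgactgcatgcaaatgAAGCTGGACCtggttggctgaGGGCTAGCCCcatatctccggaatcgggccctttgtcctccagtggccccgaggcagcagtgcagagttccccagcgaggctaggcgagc
Cdkn1a promoter, chr17:29090729-29091028, plus strand: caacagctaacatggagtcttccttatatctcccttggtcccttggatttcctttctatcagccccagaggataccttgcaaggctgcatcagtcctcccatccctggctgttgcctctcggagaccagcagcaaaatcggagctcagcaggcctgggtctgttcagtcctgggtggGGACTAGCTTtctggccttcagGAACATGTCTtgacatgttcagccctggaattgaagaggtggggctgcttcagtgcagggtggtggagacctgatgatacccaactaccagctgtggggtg
The Ccng1 element had 1 mismatch and no spacer, those of Bax and Gadd45a had 2 mismatches and spacers of 5 and 11 bases, and that of Cdkn1a had 0 mismatches and a spacer of 12 bases. A narrower scan for decamers next to each other was added after these matches had been seen. It left 1 of the 9 windows, that of Ccng1, beside 0.326% of all windows, and in Cdkn1a it picked an overlapping site with 1 mismatch.
Cdkn1a adjacent decamers: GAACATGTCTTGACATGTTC
Of the genes with a match, Gadd45a and Cdkn1a fell, and Ccng1 and Bax did not pass the test. A match describes these letters and was not tested as a binding site.

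The direction of the 10 differences was kept in most of the 21 alternative fits, as the plot of alternatives shows. Perp passed the threshold in 14 of them, Gadd45a in 13, Fas in 6 and Sesn2 in 2, and Cdkn1a passed in all 21.

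**Figure D5:**
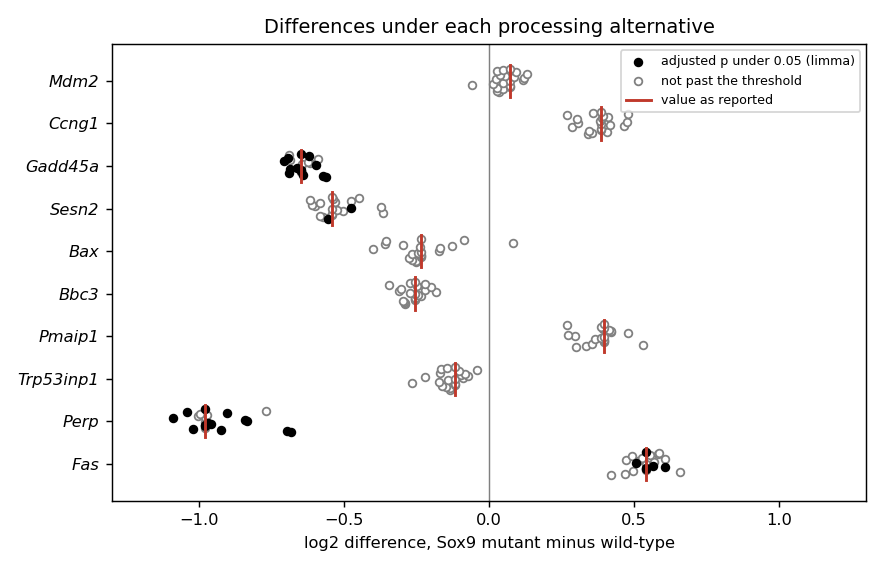
Difference in log2 signal, Sox9 mutant minus wild-type, for each of the 10 genes under each of 21 alternative fits (points, filled where the adjusted p is under 0.05 by limma) and as reported (red bar). Perp, Gadd45a, Sesn2 and Fas keep their sign throughout, and Bax and Mdm2 each cross 0 once.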

How the data were processed

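The scanner output was extracted with Agilent Feature Extraction 9.5.3.1, per the file headers, and the authors' deposited processed signal is a linear intensity, background subtracted and detrended, not normalized between arrays. The deposited flags (other values of each spot, per the file headers) mark control, outlier, saturated and well-above-background spots. A deposited table of the authors' normalized intensity, for which the submitters' processing notes name limma, served as an alternative. Its columns share a median of 227. Its scale is linear, and its background steps are not given in the sources used here.

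Of 45018 spots, 1639 controls and the outlier-flagged spots were left out. Log2 signals minus the 75th percentile were averaged per probe and fitted with limma 3.58.1 in R 4.3.3. Names came from RefSeq accessions where they matched (23483 of 41174 probes), through probes that shared a name with those (4514) and otherwise from the file. The genes and gene lists were chosen with earlier results of these data known. Named list genes are those past the threshold, up to 4 by size, or the 2 largest differences where none passed, with Trp53, Cdkn1a, Cdh1 and Epcam in any case, while Gadd45b, Gadd45g and the other desmosome and Pmp22 family genes were named after their values were seen. On data simulated for this comparison over 18489 genes, 8% of changes of 0.5, 42% of 1, 74% of 2 and 96% of 3 log2 units were recovered, with 9 false calls. The simulation changed 50 genes per size and drew independent noise for each value, without slide or array effects. These shares therefore need not hold for the real arrays. The number of arrays limits the precision. The values of 2 marker genes are not reported here. Chosen after results had been seen, and given as alternatives only, were the updating of older gene names through RefSeq synonyms, and a p53 element without a spacer.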

Additional observations from a re-analysis of the deposited data

Results flagged for a closer look

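Among 30 groups of 4 arrays, from 15 probes in each genotype, 4 had an array whose distance from its nearest neighbour exceeded the 95% critical value of Dixon's test, where chance gives about 1 in 20. The Bax probe read 0.344 in Sox9 mutant replicate 3, with the other mutants between 1.48 and 1.67. The upstream Mdm2 probe read -2.94 in the same array, with the other mutants between -1.73 and -1.57. The brighter Trp53inp1 probe read 0.773 in wild-type replicate 1, with the other wild-type arrays between 1.15 and 1.22. The brighter Sesn2 probe read 3.40 in wild-type replicate 1, with the other wild-type arrays between 2.69 and 2.77.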

How the results depend on the processing

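Over the 10 genes and 21 alternative fits, 2 values changed sign: Mdm2 was -0.060 with the mean of its kept probes, and Bax was 0.081 without Sox9 mutant replicate 3, within a range of -0.400 to 0.081 when 1 array was left out. The count of genes past the threshold, 994 as reported, was 419 with no filter on dim probes, 1709 with array weights and 1532 with a random slide effect. Leaving out 1 array gave 395 to 976 genes and 0 to 2 of the 10 p53 target genes. With no filter on dim probes, 0 of the 10 passed. Same-numbered samples did not deviate together (correlations of -0.354, -0.295, -0.0053 and 0.087). Slide and array quality can also enter these values, so they do not settle whether the numbers pair the samples. A fit with the replicate block gave 340 genes and 0 of the 10. Leaving out wild-type replicate 1 and Sox9 mutant replicate 3 together, chosen after seeing the Bax values, gave 64 genes, 0 of the 10 and 0 of the 16 epithelial markers, from 3 arrays each. Updating older gene names through synonyms, also added later, gave 1005 of 18344 genes and the count of 3 among the 10. Of the calls, 288 were higher and 706 lower in the mutants as reported, against 523 and 732 in the authors' deposited table and 551 and 725 with normexp. Sesn2 passed with normexp (-0.56, adjusted p = 0.0446) and with array weights (-0.48, adjusted p = 0.0444). The p53 element was in 3 of 9 promoter windows with a spacer and in 1 of 9 without. The causes were not tested. Small changes are beyond these 8 arrays, and the second Fas probe was above background on too few arrays to be tested.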
